A study of Mus musculus with 3 samples.

Results

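The genes described here are 10 heat shock proteins and chaperones, picked by symbol from the 27998 genes of a single-cell count matrix: Hspa1a, Hspa1b, Hspa8, Hspa5, Hsph1, Dnajb1, Hsp90aa1, Hsp90ab1, Hspd1 and Hspe1. They were chosen because of their levels in these cells, above all those of Hspa1a and Hspa1b in microglia of 2 libraries, so every level and ratio below is a description and none is tested. The cells were sorted by FACS for Cd11b, an integrin chain on microglia and related myeloid cells, from enzymatically digested brains without the cerebellum of female C57BL6J mice 5 months old. The labels give 1 library each to untreated mice (Ctrl, 1 animal), to mice fed PLX5622 at 1200 mg/kg of diet for 14 days (D0, 2 animals pooled), and to mice that had the same 14 days of drug and then ate control diet for 2 days (D2, 1 animal). PLX5622 inhibits Csf1r, the receptor whose signal microglia need to live. The count matrix pools 3 libraries by the number that ends each barcode, and no label or file used here ties a number to Ctrl, D0 or D2. The libraries are therefore called library 1, 2 and 3, they stand in no group, and with 1 library each there is no replicate.

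Chaperones bind unfolded proteins and help them fold, refold or be degraded. HSP70 proteins bind short hydrophobic stretches of a client in a cycle driven by ATP, J-domain proteins such as Dnajb1 hand them clients and start the ATP step, HSP110 proteins such as Hsph1 release the spent nucleotide, and HSP90 proteins finish the folding of signalling proteins. Heat, oxidation and other stress free the transcription factor Hsf1, which binds heat shock elements and switches on the inducible members within minutes, whereas misfolded protein in the endoplasmic reticulum raises Hspa5 through the unfolded protein response. In single-cell work on brain, heat shock and immediate early genes are also known to respond to tissue dissociation.

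Hspa1a and Hspa1b, the stress-inducible HSP70 genes, lie side by side on chromosome 17 of GRCm38, at 34969190 to 34972156 and 34956436 to 34959238, both on the minus strand, and their upstream stretches hold a match to the heat shock element, the kind of site that Hsf1 is known to bind. The RefSeq table (GRCm38.p6) matched 7 of the 10 genes. The 250 bases before each start, for chr17:34972157-34972406 and chr17:34959239-34959488, read 5′ to 3′ on the minus strand, are given because the data turn on this pair, with the heat shock element in capitals.
Hspa1a: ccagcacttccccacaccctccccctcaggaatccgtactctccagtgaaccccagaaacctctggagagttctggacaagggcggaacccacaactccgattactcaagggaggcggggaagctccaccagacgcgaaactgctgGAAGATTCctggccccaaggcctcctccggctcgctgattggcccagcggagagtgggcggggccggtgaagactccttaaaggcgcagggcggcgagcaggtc
Hspa1b: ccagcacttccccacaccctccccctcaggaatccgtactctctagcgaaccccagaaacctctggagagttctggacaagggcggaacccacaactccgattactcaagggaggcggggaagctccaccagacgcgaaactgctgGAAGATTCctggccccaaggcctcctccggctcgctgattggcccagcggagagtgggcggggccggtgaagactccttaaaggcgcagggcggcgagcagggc
The element GAAGATTC ends 97 bases before the start in both, and 247 of 250 bases were identical (98.8%). A match to GAANNTTC, searched on both strands, was present in 6.69% of 32851 windows of the same length. The coding sequences were 99.5% identical, whereas the last 300 bases of the transcripts, from which 3′ libraries take their reads, aligned with 52.8% identity. Reads from the 3′ ends can therefore be told apart, but reads from the coding part can be split between the genes or dropped, and the ratio of one gene to the other is uncertain.

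No upstream stretch of Hspa8, Hsp90aa1 or Hsp90ab1 was available, so these were not searched. Among the other members, Hspa5 and Hspe1 had elements that the Hspa1 pair did not. Hspa5, the HSP70 protein of the endoplasmic reticulum, had the endoplasmic reticulum stress element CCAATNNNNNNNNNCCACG at chr2:34772020-34772049 on the plus strand, a motif found in 0.113% of windows, and Hspe1, the mitochondrial co-chaperonin, had the longer heat shock element GAANNTTCNNGAA at chr1:55088053-55088082, found in 0.466%. Both are shown with the element in capitals. The Hspe1 stretch also holds a match to the shorter element of the Hspa1 pair, GAACCTTC, which ends 77 bases before the start.
Hspa5: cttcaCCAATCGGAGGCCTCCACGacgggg
Hspe1: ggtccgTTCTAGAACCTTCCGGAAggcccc
The Hspe1 capitals span overlapping matches on the opposite strands, and the same stretch lies before a downstream start of Hspd1, the mitochondrial chaperonin that is transcribed away from Hspe1. No match to any of these motifs was found in the windows before Dnajb1, Hsph1 or the gene's own start of Hspd1. This says only that the letters are not there. A match is a run of letters and does not show that a factor bound there.

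Library 1 held 1263 barcodes and 6410990 unique molecular identifiers (UMIs, each counted once per captured molecule), library 2 held 599 and 4022293, and library 3 held 287 and 2831118. No barcode was shared, and 2137 cells remained after filters. Clusters were named from marker genes and are written with the ending "-like". Microglia-like cells were 1072 of 1261 cells in library 1 (85.0%), 65 of 592 in library 2 (11.0%) and 1 of 284 in library 3 (0.352%), so library 3 has no microglia-like level. All 10 microglia markers, P2ry12, Tmem119 and Sall1 among them, were detected in both larger sets, with summed levels of 35612 UMIs in every 1000000 (counts per 1000000, or CPM) in library 1 and 19138 CPM in library 2. Clusters 0, 1 and 2 made up the class. Cluster 0, led by P2ry13 and P2ry12, held 485 cells of library 1 and 39 of library 2. Cluster 1, led by Adamts1, Hk2 and Gem, held 585 and 6, and cluster 2, led by Apoe, Cst7 and Il1a, held 2 and 20. Different clusters thus held most of the class in the 2 libraries. In library 2 the marker sum was 24744 CPM in cluster 0, 20208 CPM in cluster 1 and 13643 CPM in cluster 2. Cluster 2 had no microglia marker among its 10 leading genes. Border-associated-macrophage-like cells of library 1, described below, reached 19563 CPM, so the sum alone does not mark microglia. All intervals below are exact 95% intervals that cover counting error only.

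In microglia-like cells Hspa1a stood at 1019 CPM in library 1 (990.4 to 1048, from 4829 UMIs) and at 329 CPM in library 2 (269 to 399, from 103 UMIs). The log2 ratio, with 1 count added to each sum, was 1.62 (1.35 to 1.93), or 3.07-fold. Hspa1b stood at 62.0 CPM in library 1 (294 UMIs), and a single UMI gave 3.20 CPM in library 2. Without the added count the ratio was 19.4, with an interval from 3.46 to 769, so its size is poorly fixed. Both genes were higher in library 1 and the counting intervals of the libraries did not overlap. Beside this, the mitochondrial share had a median of 1.13% of UMIs per cell in library 1 and 1.95% in library 2, and median depth was 3370 and 3761 UMIs. The part of these values in the ratios was not tested.

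In the whole class the share of cells with a UMI showed the same order. After thinning each cell at random to 2000 UMIs, 434 of the 1005 deep enough in library 1 had a Hspa1a or Hspa1b UMI, 43.2% (40.1 to 46.3), and 15 of 59 in library 2, 25.4% (upper bound 38.4). Without thinning the shares were 49.7% and 38.5%. Thinning left out 67 and 6 shallower cells. In cluster 0 alone the order turned around, with 26.6% in library 1 (22.5 to 31.0, 433 cells) and 39.4% in library 2 (22.9 to 57.9, 33 cells), and the intervals overlap. No class is known to lack these genes. The lowest shares were in neutrophil-like cells, 15.6% in library 2 (5.28 to 32.8, 32 thinned cells) and 9.52% in library 3 (1.17 to 30.4, 21 thinned cells), at median depths of 3562 and 3643 UMIs. The share in microglia-like cells of library 2 lay within the first of these intervals, and the interval of library 1 lay above both.

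The constitutive HSP70 proteins differed less. Hspa8, the ever-present cytosolic HSP70, was at 1556 CPM in library 1 and 1214 CPM in library 2, a log2 ratio of 0.35 (0.21 to 0.51). Hspa5 was at 721 and 396 CPM, a log2 ratio of 0.85 (0.61 to 1.13). Both were higher in library 1 by less than 2-fold. Hsph1, the HSP110 partner of HSP70, was nearly absent: 10.8 CPM in library 1 from 51 UMIs, and 0 UMIs in library 2, where 3 counts would be 9.59 CPM. The intervals of the 2 levels overlap, so no difference was detectable at this depth. Dnajb1 was at 74.7 and 47.9 CPM, and the interval of its log2 ratio, -0.10 to 1.49, reached both sides of 0.

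The 2 cytosolic HSP90 genes were both higher in library 1. Hsp90aa1, the inducible form, was at 497 CPM in library 1 (477 to 518) and 173 CPM in library 2 (129.6 to 225), a log2 ratio of 1.50 (1.14 to 1.94). Hsp90ab1, the constitutive form, was at 829.9 and 498 CPM, a log2 ratio of 0.73 (0.50 to 0.98). The mitochondrial pair went the other way by small amounts. Hspe1 was at 257 and 281 CPM with a log2 ratio of -0.15 (-0.44 to 0.20), and Hspd1 at 89.9 and 102 CPM with a log2 ratio of -0.23 (-0.71 to 0.38), and both intervals include 0.

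A gene was counted as higher or lower here when it differed by at least 2-fold and its counting intervals did not overlap, among genes with at least 50 UMIs in the 2 sums together. By this rule Hspa1a, Hspa1b and Hsp90aa1 were higher in library 1, 3 of 10 members, and none was lower. Of all 7159 genes that passed the filter 5.69% were higher and 1.90% lower. The median log2 ratio was 0.79 over the members and 0.20 over all these genes. The members were chosen on this contrast, so the counts support nothing. The plot of microglia-like levels shows the ratios beside those in cluster 0.

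**Figure D1:**
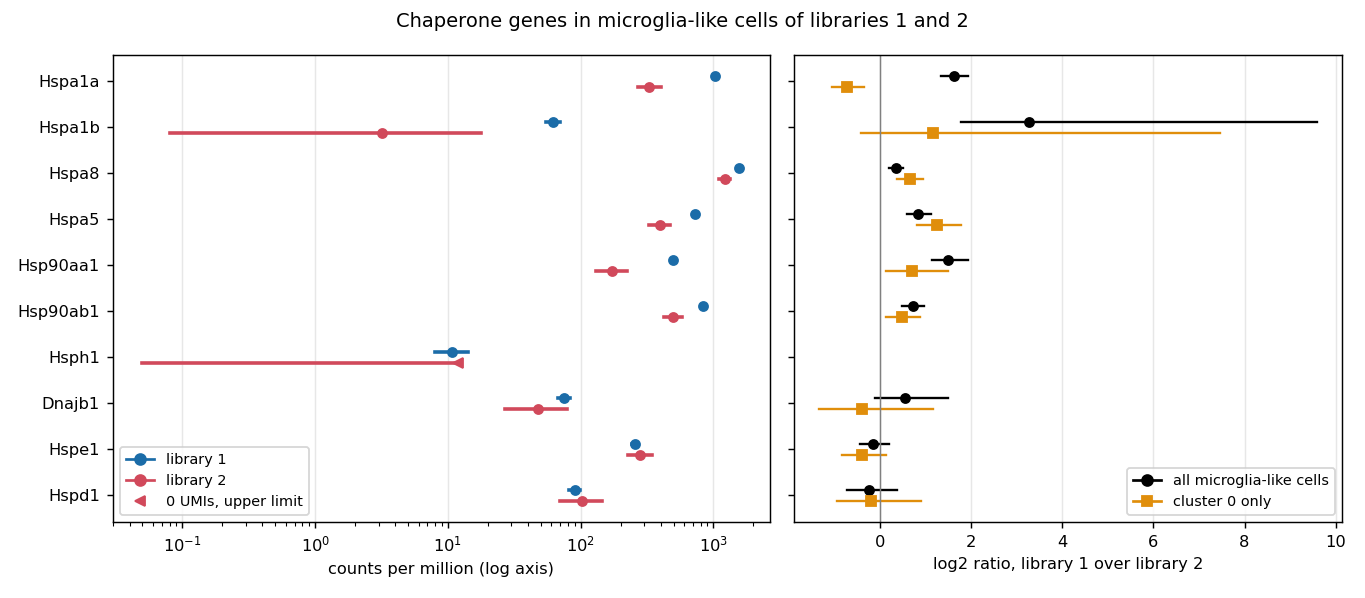
Left, CPM (log axis) of each gene in microglia-like cells of library 1 (1072 cells) and library 2 (65 cells), with exact Poisson 95% intervals; the triangle is the upper limit for 0 UMIs. Right, log2 ratio of library 1 over library 2 (points with 1 count added, lines the exact 95% interval) in all microglia-like cells and in cluster 0 alone; Hspa1a is at 1.62 in the former and at -0.72 in the latter, and Hsph1, with 0 UMIs in library 2, has no point.

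The Hspa1a ratio turned around when cluster 0 was taken alone. In cluster 0, whose leading genes are those of microglia at rest, Hspa1a was at 377 CPM in library 1 (347 to 409) and 615 CPM in library 2 (489 to 763), a log2 ratio of -0.72 (-1.04 to -0.35). The library 2 level rests on 82 UMIs in 39 cells. Over the 65 microglia-like cells of library 2 the top 7 held 67.0% of the Hspa1a UMIs. After thinning 6 had 3 or more, 5 of them in cluster 0. The intervals do not cover this spread between cells. The higher total in library 1 came with cluster 1, where Hspa1a stood at 1332 CPM (1293 to 1373) and which held only 6 cells of library 2, at 302 CPM (151 to 540.4, from 11 UMIs). In library 2 the lower total came with cluster 2, where Hspa1a stood at 69.9 CPM (33.5 to 128, from 10 UMIs), against 615 CPM in cluster 0 of that library. The libraries therefore differ in which clusters the microglia-like cells belong to, and the order of Hspa1a in cluster 0 is the opposite of that in the class, whereas cluster 1, with its 6 cells of library 2, had the order of the class. Clusters were defined on expression, chaperone genes included, so these differences between clusters are no test. When chaperone, immediate early and cytokine genes were left out of the clustering, the class held 1069 cells of library 1 and 41 of library 2, and the log2 ratio was 0.70 (0.42 to 1.04). Without cluster 2 it was 0.88 (0.60 to 1.21).

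Other members behaved differently in cluster 0. Hspa5 was at 711 CPM in library 1 and 292 CPM in library 2, a log2 ratio of 1.25 (0.82 to 1.78), and was the 1 member of 9 above the UMI minimum counted as higher, beside 3.99% of 4039 genes. Hspa8 was 0.66 higher on the log2 scale (0.39 to 0.95), Hsp90aa1 0.72 (0.15 to 1.49) and Hsp90ab1 0.49 (0.15 to 0.89). Dnajb1, Hspe1 and Hspd1 had intervals that include 0. Hspa1b had 51 UMIs in library 1 and 1 in library 2, a ratio of 4.41 with an interval from 0.757 to 178, so no direction can be read. In cluster 0, then, Hspa1a was the 1 member whose counting interval lay below 0, on a library 2 level carried by few cells. Hspa5, Hspa8, Hsp90aa1 and Hsp90ab1 had intervals above 0.

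Within library 1, cluster 1 differed from cluster 0 in the same inducible genes. Over all libraries the median depth was 4770 UMIs per cell in cluster 1 and 2830 in cluster 0, and its part was not tested. Hspa1a was at 1332 and 377 CPM, Hspa1b at 75.9 and 33.1 CPM, and Hsp90aa1 at 609 and 271 CPM, log2 ratios of 1.82, 1.18 and 1.17. These were 3 of 10 members counted as higher, beside 1.20% of 7016 genes, and no member was lower, beside 0.171%. Dnajb1 was at 89.1 and 45.4 CPM, just under 2-fold. Hspa5 (729 and 711 CPM), Hspe1 (262 and 247 CPM) and Hspd1 (92.2 and 85.0 CPM) stayed close, with intervals that include 0. Cluster 1 also had the higher immediate early genes, a list with Fos, Jun and Egr1, at a summed 17591 CPM against 7916 CPM, and the higher cytokine genes, a list with Tnf, Ccl3 and Ccl4, at 9966 CPM against 1199 CPM. By the same rule 10 of 18 immediate early and 9 of 10 cytokine genes were higher there, and 0 of 68 other chaperone genes in either direction. In library 2 the cytokine list reached 23311 CPM in cluster 2, where Hspa1a was at 69.9 CPM, against 2444 CPM in cluster 0, where it was at 615 CPM. By the rule Hspa1a was lower in cluster 2, 1 of 5 members, beside 3.29% of 669 genes, and no member was higher, beside 7.47%. So high cytokine levels came with high Hspa1a in one library and with low Hspa1a in the other. Their part in the Hspa1a levels was not tested.

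The other chaperones were taken as a list of 81 genes, of which 80 were in the matrix and 68 passed the UMI minimum in microglia-like cells of libraries 1 and 2. By the same rule 5 were higher in library 1 and 0 lower, a share near the 5.69% and 1.90% over all genes, with a median log2 ratio of 0.39 beside 0.20 over all genes. The 5 were the J-domain proteins Dnajb4 and Dnaja1, the endoplasmic reticulum proteins Creld2 and Manf, which are known targets of the unfolded protein response, and Cacybp, which binds calcyclin and ubiquitin ligases. Dnajb4 was at 47.5 and 12.8 CPM (225 and 4 UMIs) and Dnaja1 at 164 and 73.5 CPM. Manf was at 311 and 144 CPM and Creld2 at 67.7 and 28.8 CPM. Among the 5 highest ratios Hsf1, the heat shock transcription factor, had 134 UMIs in library 1 and 3 in library 2, and its interval, -0.02 to 3.86, includes 0, while Bag6, a holdase for membrane proteins, had a log2 ratio of 1.13 (0.06 to 3.34). The 5 lowest were Hspb11, Dnajb14, Dnajb5, Cct4 and Hspa9, with log2 ratios from -0.83 to -0.39, none lower by the rule. By group, the rule was met by 2 of 20 J-domain proteins, 1 of 19 co-chaperones, 2 of 13 endoplasmic reticulum genes and 0 of 7 chaperonin TRiC subunits. This count of 5 moved with the processing: it was 2 with at least 1000 genes per cell, where 5.50% of all genes were higher, and 3 with the stress lists left out of the clustering, where the share over all genes was also smaller, 2.70%.

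In the same contrast the lists that might move with a stressed state split. Of the immediate early genes 4 were higher and 3 lower in library 1, from Rhob at a log2 ratio of 1.52 to Fosb at -1.73, with summed levels of 14451 CPM in library 1 and 12369.7 CPM in library 2. Of the cytokine genes 1 was higher (Cxcl2, 1.77) and 6 lower, down to Il1b at -4.00, with summed levels of 7152 and 13488 CPM. Of 4 proliferation genes above the UMI minimum none was counted. The part of these lists in the chaperone ratios was not tested.

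Hspa1a was unevenly spread over single cells. In library 1, 571 of 1072 microglia-like cells (53.3%) had no Hspa1a UMI, whereas the highest had 75, and the top 108 cells held 59.2% of all its UMIs. After thinning, the variance of Hspa1a over cells was 8.22 times its mean, where random sampling of equal cells would give a value near 1. Hsp90aa1 followed at 3.01, Hspa8 at 1.81, Hspa1b at 1.71 and Dnajb1 at 1.70. Hspa5 was at 1.31, and Hspe1 and Hspd1 at 1.13 and 1.04 were close to even sampling. In microglia-like cells of library 2 the value for Hspa1a was 7.01, so the uneven spread was present in both libraries. The value can grow with the level of a gene, and Hspa1a was among the most abundant members, so its order over genes is not an order of variability alone. Hspa8, at 1.81 in library 1, had a higher thinned mean there than Hspa1a, 3.22 against 2.13 UMIs per cell.

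**Figure D2:**
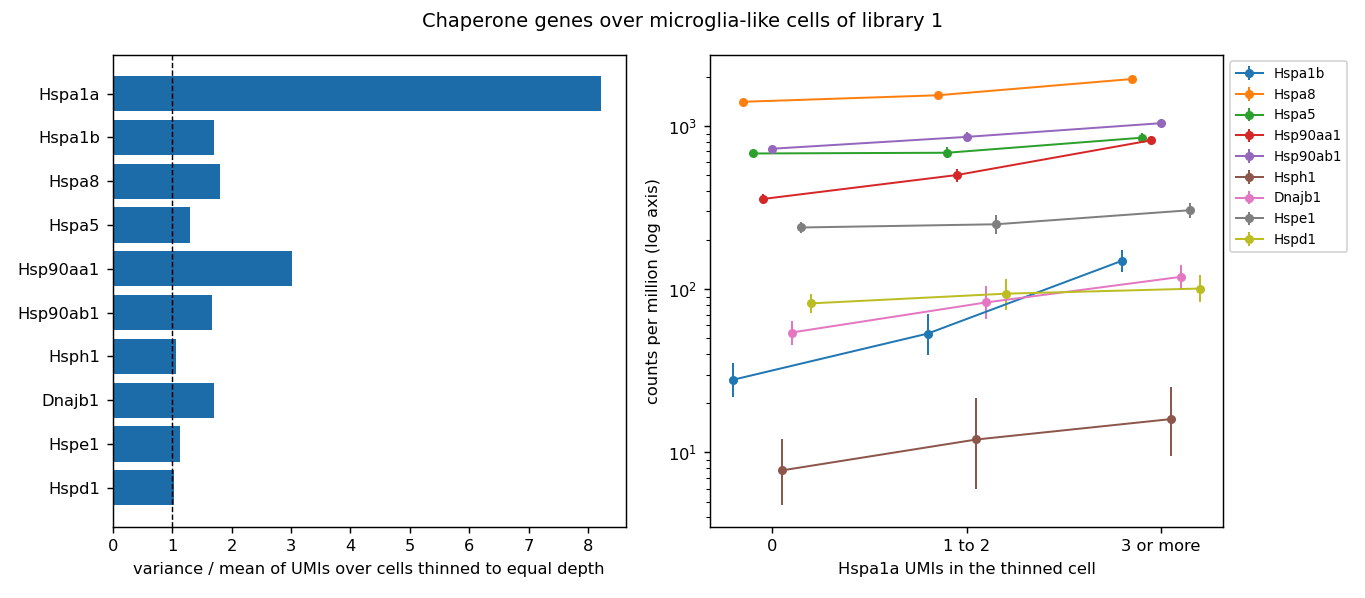
Left, variance divided by mean of UMIs over 1005 microglia-like cells of library 1 thinned to 2000 UMIs, with a dashed line at 1, the value for random sampling; Hspa1a reaches 8.22. Right, CPM (log axis, exact Poisson 95% intervals) of the other genes in the same cells with 0, 1 to 2, or 3 or more thinned Hspa1a UMIs (594, 172 and 239 cells). Hspa1b climbs from 27.9 to 149.6, Hspe1 from 239 to 305 and Hspd1 from 81.9 to 101.

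Cells with more Hspa1a had more of the other inducible genes. From the 594 cells with no thinned Hspa1a UMI, through 172 cells with 1 to 2, to 239 cells with 3 or more, Hspa1b stood at 27.9, 53.5 and 149.6 CPM. Hsp90aa1 stood at 357, 501 and 818 CPM, and Dnajb1 at 54.3, 83.0 and 119 CPM. The differences were smaller for Hspa8 (1408, 1543 and 1941 CPM), Hsp90ab1 (726, 858 and 1041 CPM) and Hspa5 (679, 686 and 848 CPM). Hspd1 stood at 81.9, 93.9 and 101 CPM, with overlapping intervals. The highest tier held 49 cells of cluster 0 and 190 of cluster 1, and the lowest 330 and 262, so the tiers differ in cluster too. The immediate early list stood at 13387, 15535 and 16296 CPM over the tiers and the cytokine list at 7175, 7789.7 and 6910.5 CPM, so the cytokine genes did not follow Hspa1a. Reads assigned to the wrong one of the near-identical Hspa1 genes would place Hspa1b UMIs in cells with Hspa1a, and their number was not measured.

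Likeness to the Hspa1 pair was measured as Pearson's r of log values with the sum of Hspa1a and Hspa1b over the 1005 thinned cells of library 1, among 4403 genes with a UMI in at least 5% of them. These are cells of 1 library and the counts are sparse, so r is a description. Among the highest after the pair itself were Hsp90aa1 (0.31), Hsp90ab1 (0.21), Jun (0.20), Hspa8 (0.18), Jund (0.17), Btg2 (0.15) and Ubb (0.15). These are 3 members, the ubiquitin gene Ubb, and the immediate early genes Jun, Jund and Btg2. Of the other members Dnajb1 was at 0.14, Hspe1 at 0.09, Hspd1 at 0.08 and Hspa5 at 0.04. Within cluster 0 alone none of the first 7 genes was above 0.09, while Hspe1 was at 0.11 and Dnajb1 at 0.00. Within cluster 1 Hsp90aa1 was at 0.30.

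Border-associated macrophages live in the meninges and around vessels. The border-associated-macrophage-like cells, 100 cells all in library 1, had the highest Hspa1a of the 4 classes with at least 10 cells in that library, 2132 CPM (2046 to 2221), a log2 ratio of 1.07 (0.99 to 1.14) over microglia-like cells. Dnajb1 was at 283 CPM against 74.7 CPM, a log2 ratio of 1.92 (1.69 to 2.14), and Hsph1 at 22.1 CPM against 10.8 CPM. These 3 of 10 members were counted as higher, beside 3.27% of 7606 genes, and none was lower, beside 1.21%. Hspa1b, at 119 and 62.0 CPM, was just under 2-fold higher, and Hspa5, at 626 and 721 CPM, was lower by a small amount. The class was deeper, with a median of 9418 UMIs per cell against 3370, and carried all 10 microglia markers at a summed 19563 CPM. The immediate early list stood at 15874 CPM against 14451 CPM, and the cytokine list at 7092 CPM against 7152 CPM. By the rule 5 of 18 immediate early genes were higher there and 0 lower, and 5 of 10 cytokine genes were higher and 1 lower. The part of depth and of these lists was not tested.

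**Figure D3:**
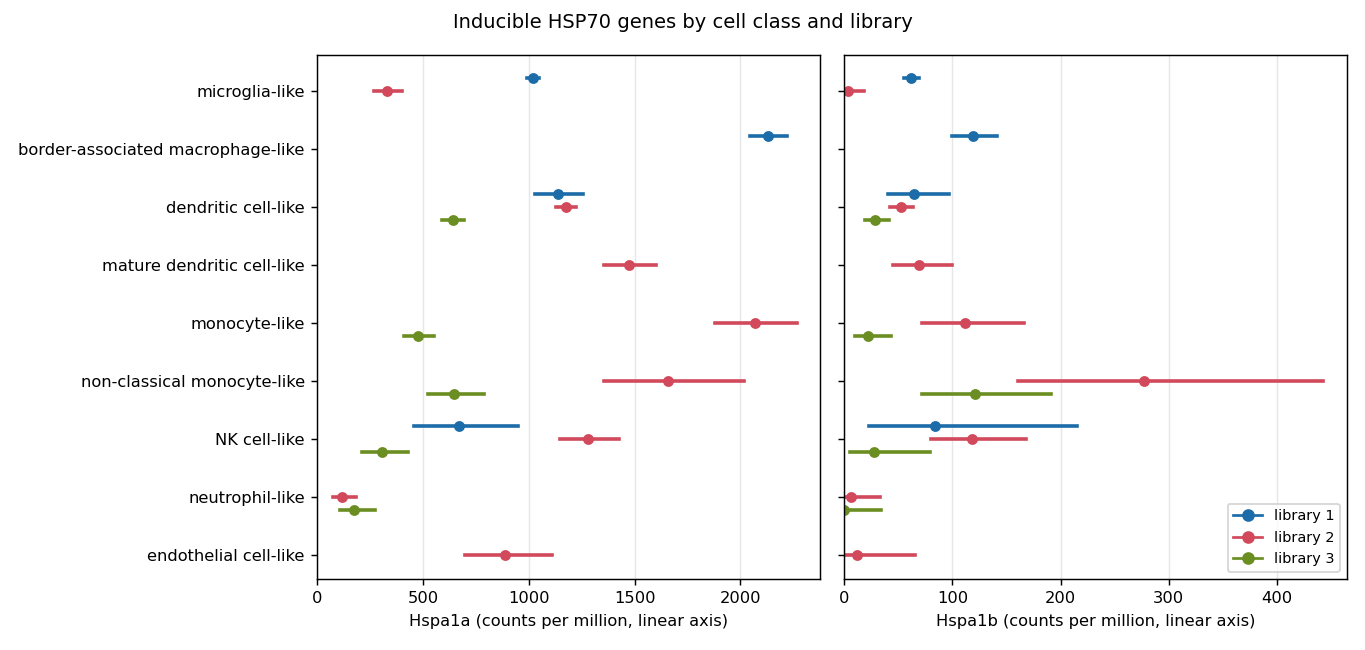
CPM of Hspa1a (left) and Hspa1b (right) in each class with at least 10 cells, by library, with exact Poisson 95% intervals on linear axes. Hspa1a is highest in border-associated-macrophage-like cells of library 1 (2132) and monocyte-like cells of library 2 (2068), and for this gene library 3 lies below library 2 in every class shown for both but the neutrophil-like one.

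In library 2, where 8 classes had at least 10 cells, Hspa1a ran from 118 CPM in neutrophil-like cells (72.3 to 183) to 2068 CPM in monocyte-like cells (1879.9 to 2269). Microglia-like cells, at 329 CPM, came next to the lowest. Above them stood endothelial-like cells at 886 CPM, dendritic-like cells at 1175 CPM, NK-like cells at 1280.5 CPM, mature-dendritic-like cells at 1474 CPM and non-classical-monocyte-like cells at 1660.3 CPM. The intervals of dendritic-like and NK-like cells overlap, as do those of NK-like and mature-dendritic-like cells, of mature-dendritic-like and non-classical-monocyte-like cells, and of the 2 monocyte classes. In library 3 Hspa1a ran over 5 classes from 174 CPM in neutrophil-like cells through 307, 477 and 639.8 CPM in NK-like, monocyte-like and dendritic-like cells to 645 CPM in non-classical-monocyte-like cells. Of the neighbours in that order, only monocyte-like and dendritic-like cells had intervals that did not overlap. Besides the microglia-like class, the dendritic-like and NK-like classes had 10 or more cells in both library 1 and library 2, NK-like cells only 13 in library 1. Hspa1a in dendritic-like cells did not separate these libraries: 1139.7 CPM from 37 cells and 1175 CPM from 216 cells, a log2 ratio of -0.04 (-0.20 to 0.11). In NK-like cells Hspa1a was lower in library 1, at 672 CPM (459 to 948), than in library 2, at 1280.5 CPM (1147 to 1425), the opposite of the order in microglia-like cells. By the rule none of the 9 members above the UMI minimum was counted in dendritic-like cells, beside 2.82% higher and 1.74% lower of 4013 genes.

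The highest class was not the same for every gene. Dnajb1 was highest in NK-like cells of all 3 libraries, at 294 CPM (161 to 493), 787 CPM (684 to 903) and 515 CPM (390.3 to 668). In library 1 the border-associated-macrophage-like cells, at 283 CPM, were not apart from them, whereas the next class of library 2, the dendritic-like, was at 239 CPM and that of library 3 at 103 CPM. The class is made of clusters 7 and 12, and cluster 7 carried the level. Cluster 7, led by Gzmc, Xcl1 and Gzmb and with none of the NK markers among its 10 leading genes, was at 1001 CPM in library 2 (862 to 1155) and 628 CPM in library 3 (471 to 822). Cluster 12, led by Gzma, Cma1 and Klra4, was at 264 CPM in library 2 (161 to 408), not apart from dendritic-like cells, and had 0 UMIs in its 5 cells of library 1. Hspa1b was highest in non-classical-monocyte-like cells, at 277 CPM in library 2 (17 UMIs) and 121 CPM in library 3 (18 UMIs), although in library 2 the intervals of this class, 161 to 443, and of NK-like cells, 80.5 to 168, overlap. Hspa8 was highest in monocyte-like cells of libraries 2 and 3, at 2792 and 2539 CPM, with mature-dendritic-like cells of library 2 close by at 2509.7 CPM. Hsp90aa1 was highest in NK-like cells of libraries 2 and 3, at 749 and 624 CPM. Hspa5 was lowest but for the neutrophil-like cells in mature-dendritic-like cells of library 2, at 135 CPM, where dendritic-like cells of that library had 448 CPM.

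Neutrophil-like cells, led by the granule genes Ngp, Camp and Ltf, were lowest of the 8 classes of library 2 for 8 of 10 members. Hspa8 was at 485 CPM and Hspe1 at 23.7 CPM (4 UMIs), where the median class had 1959 and 242 CPM. This rests on how the cells were clustered. Neutrophil-like cells were lowest for 1 member at a finer resolution. They were lowest for 0 with doublets kept, with a stricter mitochondrial or gene limit, or with the stress lists left out of the clustering. Which cells the class held under these settings was not recorded. In library 2 the median depth of this class was 3562 UMIs, beside 3092 in NK-like and 3761 in microglia-like cells. Its median mitochondrial share was 0.326% against 1.34% over that library, and the part of these values was not tested.

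Between libraries 2 and 3, which share 5 named classes with at least 10 cells in each, Hspa1a was higher in library 2 in 4 of 5 named classes, judged by intervals of the ratio above 0. In monocyte-like cells it was at 2068 and 477 CPM, a log2 ratio of 2.11 (1.86 to 2.38), and in NK-like cells at 1280.5 and 307 CPM, 2.02 (1.55 to 2.61). In non-classical-monocyte-like cells it was at 1660.3 and 645 CPM, 1.36 (0.95 to 1.78), and in dendritic-like cells at 1175 and 639.8 CPM, 0.88 (0.75 to 1.01). The exception was the neutrophil-like class, at 118 and 174 CPM from 20 and 19 UMIs, with an interval from -1.53 to 0.43. In each of the 5 other clusterings and filters run, every class compared had an interval above 0. Whether the neutrophil-like class was compared in each of them, and with which cells, was not recorded, so they do not settle the exception. An unnamed cluster of 54 and 58 cells, led by Ccl12, Cxcr2 and Birc5, had 540.0 and 221 CPM, 1.29 (1.03 to 1.56). Hspa1b had intervals above 0 in the same 4 classes and in the unnamed cluster, on sums from 3 UMIs in NK-like cells of library 3 to 103 UMIs in dendritic-like cells of library 2.

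Dnajb1 was higher in library 2 in 3 of the 5 classes and in the unnamed cluster, judged in the same way. Its log2 ratios were 2.30 in monocyte-like cells (1.22 to 3.77, from 25 and 8 UMIs), 1.20 in dendritic-like cells (0.90 to 1.54) and 0.59 in NK-like cells (0.18 to 1.06), and 1.81 in the unnamed cluster (1.35 to 2.31). In non-classical-monocyte-like cells it was 0.86 (-1.21 to 2.66, from 5 and 7 UMIs) and in neutrophil-like cells 0.79 (-1.21 to 4.48, from 7 and 2 UMIs), and both intervals include 0. Hspa8 was nearly level, with log2 ratios from 0.10 to 0.14 in the 4 classes. Hspa5, Hsp90ab1, Hspe1 and Hspd1 leaned to library 3 in some classes. In monocyte-like cells Hsp90ab1 was at 883 and 1338 CPM, -0.59 (-0.85 to -0.36), and Hspd1 at 51.1 and 123 CPM, -1.17 (-2.36 to -0.29). In the unnamed cluster Hspa5 was at 295 and 611 CPM and Hsp90ab1 at 845 and 1758 CPM. Hsp90aa1 did not go with Hspa1a here: its log2 ratio was 0.22 in monocyte-like cells, with an interval from -0.21 to 0.63, and -0.43 in the unnamed cluster (-0.68 to -0.19). In monocyte-like cells and in the unnamed cluster, then, Hspa1a, Hspa1b and Dnajb1 had intervals above 0 and Hspa5, Hsp90ab1, Hspe1 and Hspd1 intervals below it. In NK-like cells the intervals of these last 4 genes include 0.

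**Figure D4:**
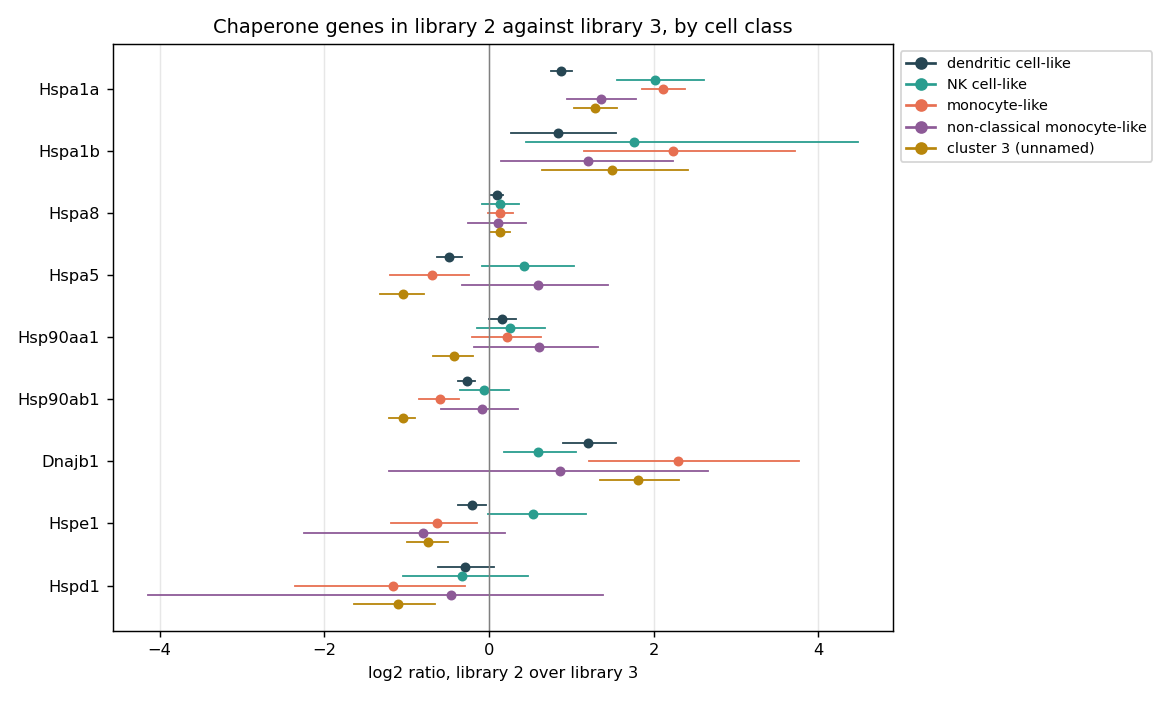
Log2 ratio of library 2 over library 3 (points with 1 count added, lines the exact 95% interval) for 9 genes in 4 classes and the unnamed cluster 3. The points of Hspa1a, Hspa1b and Dnajb1 lie right of 0 in all 5 sets of cells, those of Hspa8 sit between 0.10 and 0.14, and those of Hsp90ab1 and Hspd1 lie left of 0; Hsph1, with few UMIs, is not drawn.

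By the 2-fold rule the members above the UMI minimum that were higher in library 2 were Hspa1a in monocyte-like cells (1 of 7, beside 2.61% of 1534 genes), in NK-like cells (1 of 8, beside 0.508% of 984) and in non-classical-monocyte-like cells (1 of 5, beside 1.69% of 593), and Dnajb1 in dendritic-like cells (1 of 9, beside 1.92% of 4743). None was lower in these 4 classes, beside 2.35%, 1.42%, 1.85% and 3.29% in the same order, and neither of the 2 neutrophil-like members above the minimum was counted, beside 4.92% higher and 0.197% lower of 508 genes. In the unnamed cluster Hspa1a and Dnajb1 were higher and Hspa5, Hsp90ab1 and Hspd1 lower, 2 and 3 of 8, beside 6.54% and 19.5% of 3286 genes. Other lists differed as well. The immediate early list was higher in library 2 in each class, for example 12638 against 7852 CPM in monocyte-like cells and 7529.9 against 5614 CPM in NK-like cells. The proliferation list was higher in library 3 in dendritic-like cells, 3269 against 1849 CPM, in NK-like cells, 3219 against 933 CPM, and in the unnamed cluster, 4149.8 against 1307 CPM. It was higher in library 2 in monocyte-like cells, 2305 against 1703 CPM, the class with the highest Hspa1a ratio, and in neutrophil-like cells, 2373 against 1682 CPM. Their part in the chaperone ratios was not tested, and the animals, the treatment and the handling of each library cannot be told apart.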

How the data were processed

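The authors deposited 1 matrix of UMI counts per gene and cell, made with 10x Genomics Chromium 3′ v2 reagents per the labels' protocols and with Cell Ranger 2.0.1 and the build mm10 per the submitters' processing notes. From these counts, cells with at least 500 genes and at most 10% mitochondrial counts were kept, and Scrublet in scanpy 1.11.5 marked 7 of 2144 (0.326%) as doublets, so doublets may remain. Counts scaled to 10000 per cell gave 2000 variable genes, 30 components and 14 Leiden clusters (igraph 0.11.9, resolution 0.5), named from marker lists by a scoring rule settled after the clusters were seen: at least 3 markers each in at least a fraction of 0.3 of the cells and at 2 times the median cluster, then the class with most markers among the 10 leading genes. A class with fewer than 2 leading markers also had to have the most passing markers. It further needed 1 leading marker or at least a fraction of 0.5 of its list passing. Clusters 2 and 7 had no leading marker and got the names microglia and NK in this way. CPM were taken from each class's summed counts, scaled to 1000000. Ratios add 1 count to each sum. Intervals are exact, at 95%: Poisson for levels, Clopper-Pearson for shares and binomial for ratios. No test was run. The ratio calculation was checked on simulated summed counts that held random sampling only. They had no added spread between cells, so the check does not cover unevenly spread genes such as Hspa1a. Genes named beyond the members were the 5 highest and 5 lowest ratios among other chaperones, the highest and lowest of each further list, and the 8 most alike, 1 of which is not reported here; the other chaperones counted as higher, cells of cluster 13 and the cluster leaders were named after their values were seen. The members and lists were chosen with earlier results of these data known.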

Additional observations from a re-analysis of the deposited data

How the results depend on the processing

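Across 6 alternative clusterings, filters and namings, 2 other ways of summing and 5 counts added in place of 1, fixed at the start, Hspa1a in microglia-like cells kept a log2 ratio of library 1 over library 2 above 0. It was 0.70 with chaperone, immediate early and cytokine genes left out of the clustering, 1.07 as a mean of per-cell CPM and 1.25 with cells thinned to 2000 UMIs, against 1.62. Of the alternatives added after the data were seen, it was 0.88 without cluster 2 and reversed to -0.72 in cluster 0 alone. Hspa1b was at 1.72 with 5 counts added and 1.17 in cluster 0 alone, against 3.28, which shows how far 1 UMI in library 2 leaves its size to the added count. The share of cells with a Hspa1a or Hspa1b UMI, 43.2%, was 46.5% when each cell was named by its own markers, 33.2% with thinning to 1000 UMIs, 49.7% with no thinning and 26.6% in cluster 0 alone, where library 2 was at 39.4%. The other chaperones counted, 5, were 3 with the stress lists left out of the clustering and 2 with at least 1000 genes per cell. Neutrophil-like cells were lowest in library 2 for 8 members, but for 1 at Leiden resolution 1.0 and for 0 with the stress lists left out, with doublets kept, at 5% mitochondrial counts and at 1000 genes per cell. The classes with Hspa1a higher in library 2 than in library 3 were 4 of 5, and all of those compared under the alternatives (5 of 5 in 3, 6 of 6 at 5% mitochondrial counts and 4 of 4 at 1000 genes per cell). For the other 8 members 75 of 88 values stayed within the counting interval and 13 moved. No paired analysis was possible because each library is 1 sample and the barcodes carry no replicate number. The 65 microglia-like cells of library 2 limit every microglia comparison.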

Other observations

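An unnamed cluster of 8 cells, led by Ccdc153 and Tmem212, genes of cells with motile cilia, stood apart for Hsp90aa1. Its 7 cells of library 2 had 5453 CPM of Hsp90aa1 from 144 UMIs, where the classes of that library ran from 148 to 749 CPM. Hsph1 was at 303 CPM there from 8 UMIs and Hsp90ab1 at 1969 CPM, whereas Hspa1a was at 265 CPM from 7 UMIs and Dnajb1 had 0 UMIs. The cells are few and carry no class name.

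The NK-like and dendritic-like classes of library 1 carried microglia genes. The 10 microglia markers summed to 4827 CPM in NK-like cells and 4236 CPM in dendritic-like cells of library 1, against 187 and 801 CPM in the same classes of library 2. The Hspa1a levels of those classes in library 1, 672 and 1139.7 CPM, stand beside these values, and the part of the microglia RNA in them was not tested. The marker sum was lower in smaller classes of library 1. It was 1243 CPM in neutrophil-like, 729 CPM in non-classical-monocyte-like, 702 CPM in monocyte-like and 447 CPM in endothelial-like cells.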
